A study of Mus musculus with 6 samples.

Results

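Tailed miRNA reads were sequences that departed from their hairpin only at the 3′ end. A read of 18 nt or more was called tailed when it matched no mouse miRNA hairpin over its full length but matched a hairpin exactly once 1 to 3 bases had been removed from its 3′ end. By this rule 2496082 of the 22203194 miRNA reads carried a tail, or 11.2% of them, and 15680 of the 21722 distinct miRNA sequences were tailed. The account rests on the 173 miRNA arms (the 5p or 3p strand of a hairpin) with 1000 or more reads over all samples, of 964 arms with any read; they held 99.3% of the tailed reads.

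Bone marrow monocytes from wild-type C57BL/6 mice, grown in culture, were given PBS (the controls) or 5 pg/ml lipopolysaccharide (LPS), a bacterial cell wall component that activates innate immune cells, at a dose far below that used for acute stimulation. Small RNA was sequenced from 3 control and 3 LPS samples after 4 h. All 6 samples shared strain, genotype and culture, and the labels did not say whether replicates came from separate mice or cultures, so p-values measure the spread between these samples only. The comparison asks whether the low LPS dose altered the miRNAs of these cells. miR-223, which marks myeloid cells, was read at 6089 to 6578 counts per 1e6 miRNA reads (CPM) and miR-142, which marks blood cells, at 25897 to 30855. The lymphoid marker miR-150 stood at 14.9 to 49.3 CPM and the summed epithelial miR-200 family at 78.3 to 173, both highest in LPS replicate 2; the erythroid, liver, muscle and neuronal markers each stayed at 3.47 CPM or less.

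Mature miRNAs are not fixed at the ends that Drosha and Dicer cut. Terminal nucleotidyltransferases add bases that the gene does not encode: TUT4 and TUT7 (ZCCHC11 and ZCCHC6) add uridine to miRNAs and to let-7 precursors, and GLD2 and PAPD5 add adenosine. Uridine tails are known from RNA decay and from precursor processing, adenosine tails from changes in stability, and tailing together with trimming accompanies the decay of miRNAs bound to highly complementary targets.

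The sequences below show the kinds of tail that the results turn on. Each is the most frequent tailed read of its arm, 5′ to 3′ and with T for U as sequenced, with the tail in capitals; they stand for a U tail, an A tail, a 2-base tail, a C tail and a little tailed arm.

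miR-652-3p: aatggcgccactagggttgtgT
miR-24-3p: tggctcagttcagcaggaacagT
let-7a-1-3p: ctatacaatctactgtctttcT
miR-28a-3p: cactagattgtgagctgctggaA
miR-130b-3p: cagtgcaatgatgaaagggcatA
miR-92a-3p: tattgcacttgtcccggcctgtAA
miR-148b-3p: tcagtgcatcacagaactttgtTT
miR-21a-5p: tagcttatcagactgatgttgacC
miR-22-3p: aagctgccagttgaagaactgtA

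These reads took very different shares of their arms. The let-7a-1-3p read with a U made up 80.8% of its arm on average over the samples, the miR-148b-3p read with UU 64.3% and the miR-652-3p read with U 44.6%. The miR-130b-3p read with an A made up 35.4%, the miR-24-3p read with a U 31.4%, the miR-28a-3p read with an A 29.8% and the miR-92a-3p read with AA 26.1%. In miR-21a-5p and miR-22-3p, among the most abundant miRNAs of these cells, the leading tailed read took 2.40% and 0.608%. The mature arms lie on GRCm38, for instance miR-148b-3p at chr15:103285185-103285206 (plus strand), miR-92a-3p of the Mir92-1 hairpin at chr14:115044476-115044496 (plus strand), miR-652-3p at chrX:142739060-142739080 (plus strand) and let-7a-1-3p at chr13:48538188-48538209 (minus strand).

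LPS replicate 2 stood apart from the other 5 libraries before any tail was counted. It held 17691405 reads against 2201520 to 5148083 in the others, and only 18.6% of its distinct sequences were read once, against 67.1% to 74.6%. It also had fewer exchanged first bases, a place that no tail can reach: a first base exchanged for G was seen in 0.0694% of its miRNA reads and in 0.172% to 0.187% of the others. Substituted bases inside the reads were not lower throughout in this library. Where a comparison of LPS with control is given, its value without this library follows for the means over arms and for the named arms. Depth in miRNA reads ran from 1496283 to 10913161 per sample. Intervals cover counting error only, since reads without molecular identifiers are not independent molecules.

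Averaged over the 173 arms, so that abundant miRNAs did not set the value, 23.7%, 22.2% and 22.2% of an arm's reads were tailed in the control samples and 23.2%, 20.8% and 22.3% in the LPS samples. The groups overlapped, with LPS replicate 2 lowest of the 6. Tails of 1 base took 16.4% ± 0.693 of an arm's reads (SD, n = 6), tails of 2 bases 4.58% ± 0.277 and tails of 3 bases 1.44% ± 0.122. A 1-base U tail was the most frequent class at 10.04% ± 0.521, ahead of a 1-base A tail at 5.41% ± 0.187. The U share was 10.8%, 9.80% and 9.98% in control and 10.4%, 9.32% and 9.89% in LPS. The A share was 5.66%, 5.42% and 5.17% in control and 5.52%, 5.22% and 5.48% in LPS. Both classes overlapped between the groups, and the spread of A was the narrower. G and C tails were rare, at 0.550% ± 0.0694 and 0.383% ± 0.0288. Among the 2-base tails UU (1.26%), AA (1.16%) and AU (0.967%) led, followed by CU (0.361%) and UA (0.313%), and among the 3-base tails AAA (0.284%) and AAU (0.265%). Tails of U exceeded those of A by 4.11 to 5.19 percentage points, in all 6 samples (exact sign-flip permutation test over samples, two-sided, p = 0.031, the smallest that 6 samples allow; Benjamini-Hochberg adjusted p = 0.0361 over 15 such comparisons). Pooled over reads instead of averaged over arms, 10.3% to 11.8% of reads were tailed, since the arms with most reads carried few tails.

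Tails were far more frequent than bases misread or exchanged inside the reads. For comparison, reads with exactly 1 substituted base at each of the positions 4 to 10 from the end were counted in the same arms. A given internal position read a substituted U in 0.00534% of reads on average, while 4.29% of the pooled reads had a 1-base U tail, a ratio of 800 (711 to 1005 over the samples). The ratio was 292 for A (261 to 317), 119 for C (106 to 138) and 61.6 for G (38.2 to 83.2). The 5′ end gave a higher background for G and C: a substituted first base was read as G in 0.163% and as C in 0.0499% of reads, beside G and C tails on 0.280% and 0.487% of the pooled reads. For A and U the first base stood at 0.0162% and 0.00804%, beside tails on 2.57% and 4.29%. The 3′ adaptor of the library kit begins with T, G, G, so a U tail and 1 leftover adaptor base are the same letter. Tails that would hold more of the adaptor were nearly absent: UG took 0.0220% and UGG 0.000264% of an arm's reads, against 1.26% for UU. The part of a single leftover adaptor base in the 1-base U tails was not tested.

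The tailed share varied far more between arms than between samples. It ran from 0.654% in miR-24-2-5p to 94.2% in miR-148b-3p, with a median of 14.4% and quartiles of 6.40% and 31.4%. Between arms the SD was 21.2 percentage points, while the median SD of an arm over the 6 samples was 1.82 points. The shares of any 2 samples correlated across the 173 arms with Pearson's r of 0.954 to 0.989, a description over arms that are not independent replicates. In 23 arms at least 50% of reads were tailed, and in 35 arms under 5%. U was the leading tail of 12 of these 23 arms, A of 6, AA of 2, and C, CU and UU of 1 each. Besides the arms described next, they held Mir23b-3p at 53.6% with U tails on 47.3% of its reads, Mir421-3p at 52.8% with U tails on 41.6%, and the 5p arm of Mir3107 and Mir486, a miRNA best known from red cell precursors, at 57.98%. U was the leading tail of 91 arms (52.6%) and A of 70 (40.5%). C and G led in 3 arms each, AA in 2, and AU, CU, GU and UU in 1 each.

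miR-148b-3p, a member of the miR-148/152 family, was the most tailed arm. Its tailed share was 95.5%, 96.2% and 94.0% in the control samples and 95.4%, 90.3% and 94.1% in the LPS samples, and the UU read shown above made up 54.8% to 69.0% of the arm. The hairpin reads CT where this read has TT, so the second U of the tail equals the hairpin base at that place, and the read can equally be described as holding 1 substituted base. miR-148b-3p reads that could be described so took 65.0% of the arm. Untailed reads that ended at the same place took 3.97% of miR-148b-3p (range 2.43% to 7.02%), and those with a single U 16.2%.

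miR-92a-3p of the Mir92-1 hairpin, from the miR-17~92 cluster that is known for its part in cell proliferation, carried long A-rich tails. Its tailed share was 80.0%, 76.9% and 73.5% in control and 78.5%, 71.4% and 72.3% in LPS. Here 2-base tails took 53.2% of the reads and 3-base tails 13.2%, while 1-base A and U tails took 7.03% and 1.79%. In Mir92-1-3p the AA read took 26.1% and the read with AU, tattgcacttgtcccggcctgtAT, 21.5%, and the untailed read with the same end took 19.95%. Of the arm's reads only 3.44% could be described by 1 substituted base. The Mir92-2 copy gives the same miRNA up to the last base; the reads assigned to it were 33.6% tailed. Reads that end within the shared part were counted for Mir92-1, which had more reads of its own, so the split between the copies is uncertain.

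miR-652-3p was tailed by U at 44.1% to 47.9% and by A at 15.9% to 19.5% of its reads, over all 6 samples. Its total share was 81.00%, 81.8% and 78.0% in control and 80.1%, 76.9% and 79.8% in LPS, and the groups overlapped. let-7a-1-3p, read from the Mirlet7a-1 and Mirlet7c-2 hairpins together, had the largest share of 1-base U tails, 81.3% ± 4.10 (SD, n = 6). Its tailed share was 86.8%, 79.4% and 88.2% in control and 84.7%, 79.0% and 87.8% in LPS, over 115 to 892 reads a sample. Mir328-3p, also among the 10 most tailed arms, stood at 74.98%. The other arms with the largest 1-base U share were miR-7043-3p (54.6%), miR-542-3p (51.5%), miR-322-3p (51.4%) and miR-425-3p (47.4%). The 3p end of miR-7043-3p is also the last base of its annotated hairpin, so whether the first added base is encoded next to the hairpin could not be read from the hairpins.

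A tails led elsewhere. miR-28a-3p had the largest 1-base A share, at 40.6%, 36.8% and 36.5% in control and 39.7%, 36.4% and 37.8% in LPS, with U tails at only 6.17%. miR-130b-3p followed with 37.5% ± 3.05 and miR-326-3p with 37.4% ± 4.50 (SD, n = 6), then miR-7043-3p with 28.6% and miR-152-3p with 26.3%. C was the leading tail of miR-21a-5p, a miRNA abundant in activated myeloid cells: its 2.40% of reads with a C exceeded those with an A (1.70%) and those with a U (0.116%). In miR-331-3p the leading read also ended in a C, and in miR-101a-3p, which has EZH2 and PTGS2 among its known targets, the tail CU took 22.7% of the reads. The same miR-101a-3p ending may exist at another locus, which was not looked for because no genome sequence was used.

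The arms with most reads were mostly little tailed. miR-22-3p, the most abundant, had a tailed share of 1.07%, 1.01% and 0.987% in control and 0.983%, 0.765% and 1.01% in LPS, and a single A took 0.684% of its reads. miR-16-5p (1.19%), which limits cell cycle genes, miR-181a-5p (2.21%), Mir30b-5p (2.26%) and miR-340-5p (2.45%) were the other least tailed arms of 50000 or more reads. miR-191-5p stood at 2.61%, miR-21a-5p at 4.63%, let-7f-5p at 5.15%, Mir30d-5p at 6.02%, miR-10a-5p at 7.19% and miR-27b-3p at 11.5%. miR-146a-5p, which dampens Toll-like receptor signalling, was tailed in 21.2% ± 3.15 and miR-24-3p in 47.3% ± 5.05 of its reads (SD, n = 6). They were the only ones above 20% among the 10 arms with most reads summed over the 6 samples. Most of their reads came from LPS replicate 2, with 605659 of 647286 for miR-146a-5p and 627288 of 647565 for miR-24-3p. There miR-146a-5p stood at 55498 CPM, against 2826 to 4522 in the other samples. Across the 173 arms, Spearman's rho of the tailed share with the reads of the arm was -0.0955, with the length of the main read -0.251 and with its GC content 0.406. These are descriptions over arms that share libraries.

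Arms from the 3p side of the hairpin carried more tails than arms from the 5p side. In most miRNAs Drosha cuts the 3′ end of the 3p arm and Dicer that of the 5p arm. The 3p arms here include Mir320-3p, which is made without Drosha. The mean tailed share was 31.6% ± 1.42 over the 81 3p arms and 14.3% ± 0.688 over the 92 5p arms (SD, n = 6 samples). By sample, the 3p arms stood at 33.8%, 31.2% and 31.2% in control and 32.5%, 29.6% and 31.5% in LPS. The 5p arms stood at 14.9%, 14.2% and 14.3% in control and 15.0%, 13.1% and 14.1% in LPS. No 5p mean came near a 3p mean. The difference was 17.3 percentage points, between 16.5 and 18.85 over the samples (exact sign-flip permutation test, two-sided, p = 0.031; adjusted p = 0.0361), and 17.5 without LPS replicate 2 (p = 0.0625, the smallest that 5 samples allow). Of the 23 arms with at least 50% of reads tailed, 20 were 3p arms, and of the 35 arms under 5%, 8 were. The 3p arms exceeded the 5p arms by 10.6 points in U tails (15.7% against 5.09%), by 1.62 points in A tails (6.27% against 4.65%) and by 3.93 points in 2-base tails, each in 6 of 6 samples (exact permutation p = 0.031, adjusted p = 0.0361). U exceeded A by 8.74 to 10.3 points among 3p arms in all 6 samples. Among 5p arms U and A were near each other, 5.09% and 4.65%, and A was the higher in 1 of the 6 samples, LPS replicate 2 (exact permutation p = 0.0625).

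What could be seen of a tail depended on the hairpin itself, since a U added where the hairpin continues with a U is read as an untailed, longer miRNA. In the 51 arms whose hairpin continues with U after the main 3′ end, the median 1-base U share was 0.881%, against 8.36% for A, 10.7% for C and 6.34% for G as the next base. In the same way the median 1-base A share was 1.14% in the 39 arms that continue with A, against 3.95% to 4.31% in the arms that continue with U, C or G. U and A shares of single arms are therefore lower limits where the next base is the same letter. In the 81 arms that continue with C or G after the main end, where neither letter is hidden on that end (it can be on others), U still exceeded A by 6.25 points (13.0% against 6.70%) and 3p arms exceeded 5p arms by 22.5 points (37.7% against 15.2%), in all 6 samples (exact permutation p = 0.031, adjusted p = 0.0361). This set of arms was not planned in advance.

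Tails also sat on ends other than the main one. Over the 160 arms with 100 or more tailed reads, the matching part of the tailed reads ended short of the arm's most frequent untailed end in 30.3% ± 1.26, at it in 48.1% ± 0.557 and past it in 21.6% ± 0.889 (SD, n = 6). For untailed reads these shares were 18.7%, 65.2% and 16.1%. Since the main end was chosen on the untailed reads, their share at it is high by construction, and the difference is given as a description with no test. With reads pooled the share ending short was higher among tailed reads by 2.62 points only, against 11.6 as a mean over arms.

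Of the pooled reads with a 2-base tail, 20.8% (19.6% to 23.3% over the samples) had a second base equal to the hairpin at that place, so that they differ from the hairpin at 1 base only. For 3-base tails this was 7.55% (6.70% to 9.49%). In miR-148b-3p 65.0% and in miR-1198-5p 20.3% of the reads were of this kind, while in miR-152-3p and miR-101a-3p, also rich in longer tails, it was 1.41% and 0.0774%. Without these reads the mean tailed share over arms was 19.4% to 22.04% in the 6 samples.

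miRNAs that share the seed (bases 2 to 8, with which a miRNA pairs to its targets) often differed in tailing. Among the 154 arms with a RefSeq sequence, 21 seeds were shared by 2 or more arms, and 10 of these had members over 20 percentage points apart. The mature sequences from RefSeq, with the seed in capitals, show how alike such members are.

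miR-148a-3p: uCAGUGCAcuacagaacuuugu
miR-148b-3p: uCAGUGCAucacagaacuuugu
miR-152-3p: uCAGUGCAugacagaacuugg
miR-25-3p: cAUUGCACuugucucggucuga
miR-92a-3p: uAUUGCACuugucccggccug
miR-301a-3p: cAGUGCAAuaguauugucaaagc
miR-130b-3p: cAGUGCAAugaugaaagggcau
miR-98-3p: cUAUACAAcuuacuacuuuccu
let-7a-1-3p: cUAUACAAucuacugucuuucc

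miR-148a-3p had a tailed share of 9.50% ± 0.381 (SD, n = 6), beside 94.2% ± 2.12 in miR-148b-3p, whose last bases are the same and whose hairpin also continues with C. Tailed reads that could be described by 1 substituted base took 65.0% of miR-148b-3p and 2.36% of miR-148a-3p. miR-152-3p stood at 82.0% ± 14.2. miR-98-3p had 1.72% beside 84.3% in let-7a-1-3p; its hairpin continues with U, so U tails on its main end were hidden. miR-301a-3p had 4.02% beside 68.0% in miR-130b-3p. The miR-301a-3p hairpin continues with A, so A tails on its main end were hidden, while 1-base A tails took 37.5% of miR-130b-3p. miR-25-3p had 15.3%, beside miR-92a-3p at 75.4% for Mir92-1 and 33.6% for Mir92-2, copies whose split of reads is uncertain. miR-99a-3p had 10.1% beside 74.2% in miR-99b-3p. The hairpins of miR-25-3p and miR-99a-3p continue with C and G. The miR-29 family spanned 3.56% (miR-29b-3p), 14.2% (miR-29a-3p) and 24.8% (miR-29c-3p), all with a hairpin that continues with U. Among the let-7 5p arms the share ran from 5.15% in let-7f-5p to 27.4% in let-7i-5p and 32.1% in let-7b-5p. The hairpins of let-7f-5p and let-7b-5p continue with U, which hides U tails on the main end, and that of let-7i-5p with G. In contrast miR-17-5p, miR-20a-5p, miR-93-5p and miR-106b-5p, with a shared seed, all lay between 10.8% and 12.9%, and miR-30a-5p, miR-30c-5p and miR-30e-5p between 4.27% and 6.54%. Arms without a RefSeq sequence, such as Mir30b-5p at 2.26%, were not grouped by seed.

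Lists of miRNAs with a known link to tailing are given beside the median of 14.4% over all arms. For the let-7 precursors that TUT enzymes give a single U (group II), 3 arms were measured: let-7a-1-3p at 84.3%, let-7d-3p at 9.79% and miR-98-3p at 1.72%, of which let-7a-1-3p is merged with an arm of the other let-7 list. A further 5 group II 3p arms had too few reads for the tests; of these Mirlet7f-2-3p (97.6%), Mirlet7f-1-3p (84.0%), Mirlet7b-3p (80.7%) and Mirlet7g-3p (71.9%) were mostly tailed and Mirlet7i-3p (9.83%) was not. In the other let-7 list Mirlet7e-3p stood at 48.0% and Mirlet7c-1-3p at 6.58%, also with too few reads. The TUT4 substrates miR-26a-5p and miR-26b-5p had 11.2% and 17.3% of reads tailed and near equal U shares of 6.51% and 6.58%. miR-21a-5p, a substrate of PAPD5, stood at 4.63%, and the median over the 5p arms known to decay on targets (miR-7a-5p at 5.34%, Mir30b-5p at 2.26% and miR-30c-5p at 4.27%) was 4.27%, with miR-29b-3p at 3.56%. Of the miRNAs made without Drosha, miR-877-5p stood at 62.3%, Mir320-3p at 35.4% and miR-484 at 28.1%. Mir702-3p (94.5%), Mir877-3p (77.8%) and Mir702-5p (12 reads) had too few reads for the tests. Of the miRNAs that LPS is known to induce, miR-146a-5p stood at 21.2%, miR-155-5p at 12.7% and miR-146b-5p at 5.22%. Other arms of the LPS-induced miRNAs had too few reads for the tests, such as Mir132-3p (33.6%, 650 reads). The 6 measured arms of the miR-24 and miR-29 genes that the study followed up had a median of 19.5%.

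The LPS and control samples did not differ beyond the spread between replicates in the mean share of all tails, of 1-base A or of 1-base U tails. The mean tailed share was 22.7% ± 0.907 in control and 22.1% ± 1.21 in LPS (SD, n = 3), a difference of -0.60 points (exact permutation test, two-sided, p = 0.6; 3 against 3 cannot go below 0.1), and 0.0449 points without LPS replicate 2 (p = 0.9). Pooled over reads the difference had the other sign, 0.517 points (exact permutation p = 0.2), and was 0.171 without LPS replicate 2 (p = 0.5). Of the pooled reads of that library 5.76% had a 1-base U tail, against 3.70% to 4.13% in the other 5. Pooled shares weight each arm by its reads. In LPS replicate 2 miR-24-3p stood at 57480 CPM, against 1507 to 2264 in the other samples, with 1-base U tails on 35.4% of its reads. The part of this arm in the pooled share was not tested. The 1-base A share differed by -0.0070 points (exact permutation p = 1; 0.0877 points without LPS replicate 2) and the 1-base U share by -0.35 points (p = 0.5 by the same test; -0.076 points without it). Over 20 tail classes the smallest Benjamini-Hochberg adjusted p of the exact permutation tests was 0.778.

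Arm by arm, tailed and untailed reads were compared with edgeR's quasi-likelihood test. At an adjusted p under 0.05, 0 of 173 arms were more and 0 less tailed with LPS (0% each way), and likewise 0 of 172 for 1-base A and 0 of 172 for 1-base U tails. DESeq2 and limma also gave 0 for each. At an unadjusted p under 0.05 edgeR gave 2 arms higher (1.16%) and 1 lower (0.578%), DESeq2 0 and 0, limma 1 and 2. For A tails the unadjusted edgeR counts were 3 higher (1.74%) and 3 lower (1.74%), with 1 and 1 by DESeq2 and 2 and 2 by limma. For U tails they were 4 higher (2.33%) and 5 lower (2.91%), with 0 and 0 by DESeq2 and 2 and 3 by limma. These unadjusted counts moved with single libraries: without LPS replicate 1 edgeR gave 6 higher and 12 lower for any tail, 9 and 10 for A and 8 and 9 for U, with smallest adjusted p of 0.445, 0.0532 and 0.273. The median log2 odds ratio was -0.04. The 3 LPS samples lay above all control samples in 3 of the 173 arms and below them in 5 of the 173. For 1 arm such a separation of 3 against 3 has an exact two-sided permutation p of 0.1. In none of the lists above did an arm pass the test.

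Among the arms with the smallest p, miR-194-5p had 2.11%, 1.25% and 3.15% of reads tailed in control and 4.69%, 13.3% and 1.49% in LPS (log2 odds ratio 2.04, SE 0.79; edgeR adjusted p = 0.981; 0.62 without LPS replicate 2). Only LPS replicate 2 was high, with 233 of 1747 reads, while the other samples held 67 to 128 reads of the arm. Mir6236-5p followed with means of 1.57% in control and 6.07% in LPS, again at an edgeR adjusted p of 0.981 (log2 odds ratio 1.90, and 1.44 without LPS replicate 2). Any tailed reads of Mir6236-5p that also match a transcript other than a miRNA hairpin in full were kept. miR-324-5p had 13.9%, 23.2% and 22.5% in control and 12.2%, 3.06% and 20.2% in LPS (log2 odds ratio -1.79, SE 0.74; edgeR adjusted p = 0.981; -0.42 without LPS replicate 2). The LPS replicate 2 value of miR-324-5p rests on 130 of 4245 reads (95% Wilson interval 2.59% to 3.62%). Mir140-5p, with 42.7%, 32.6% and 41.2% in LPS against 45.0% to 46.8% in control, did not overlap between the groups and did not pass the test either (log2 odds ratio -0.44, SE 0.21; edgeR adjusted p = 0.981; -0.22 without LPS replicate 2). Of the other named arms, the log2 odds ratio was -1.78 for miR-3068-5p (-1.82 without LPS replicate 2), -0.55 for miR-1198-5p (-0.16) and -0.27 for miR-125b-5p (-0.17). It was 0.80 for miR-27a-5p (0.86 without LPS replicate 2), 0.65 for Mir16-1-3p (0.43) and 0.34 for Mir30d-3p (0.32). miR-3068-5p held only 13 to 16 reads in each sample but LPS replicate 2, which had 2053.

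miR-24-3p, the arm that the study took forward, had a tailed share of 52.4%, 47.2% and 46.6% in control and 51.4%, 38.2% and 48.0% in LPS (log2 odds ratio -0.17, SE 0.20; edgeR adjusted p = 0.981; 0.06 without LPS replicate 2). Its level was 57480 CPM in LPS replicate 2 and 1507 to 2264 in the other samples. Its 1-base U tails took 35.4% of reads there, within the 35.2% to 41.0% of the other samples. The 1-base A tails took 1.11% of reads in LPS replicate 2 (95% Wilson interval 1.09% to 1.14%) against 7.38% to 8.24% in the other 5 samples. miR-29a-3p, with 15.0%, 13.6% and 13.9% in control and 15.3%, 12.3% and 14.9% in LPS, overlapped between the groups.

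LPS replicate 2 had the lowest tailed share of the 6 samples in 70 arms and the highest in 24; control replicate 1 was the highest in 65. miR-152-3p had 53.3% in LPS replicate 2 (95% Wilson interval 52.2% to 54.4%) against 85.9% to 91.2% in the other 5. miR-331-3p went the other way, with 83.8% against 63.7% to 75.8%. In miR-125a-5p the 1-base G tail took 0.114% in LPS replicate 2 and 7.35% to 10.97% in the others. Whether more cells of a type or more miRNA per cell lay behind a level cannot be told apart in bulk RNA. The part of library preparation in the values of LPS replicate 2 was not tested.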

How the data were processed

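Libraries were made by the authors with TruSeq small RNA reagents and run on a HiSeq 1000, and they removed adaptors with perl scripts and Btrim64; the deposited files hold counts of each distinct trimmed read, of 11 to 40 nt, for each sample. The trimming settings were not given in the sources used here. No count was normalized. Here each read of 18 nt or more was matched to 1174 mouse miRNA hairpins of GENCODE vM21 (GRCm38), sense strand, without mismatch, taking the fewest removed bases. Arms were split at the hairpin midpoint, and 2 arms were merged where 50% or more of the reads of each also matched the other. A read matching several arms went to the arm with most reads of its own. Tailed reads that also match another transcript in full were not left out. RefSeq (GRCm38.p6) named 154 of the 173 arms; the others carry GENCODE names.

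Shares were tested over samples by exact permutation and sign-flip tests in Python 3.11.15. For arms, edgeR 4.0.16 (R 4.3.3) fitted tailed and other reads with a term per sample and tested tailed by LPS, adjusted by Benjamini-Hochberg over all arms, with DESeq2 1.42.0 and limma 3.58.1 as alternatives. Matching and fits were tested on simulated data. Replicate numbers were not treated as pairs. Named arms were the 10 with most reads, the 10 most tailed, the 5 with most A and with most U, the 5 least tailed of 50000 or more reads, the 5 smallest p in each direction, and lists; other arms were chosen after their values were seen. The members and lists were chosen with earlier results of these data known.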

Additional observations from a re-analysis of the deposited data

How the results depend on the processing

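The differences between LPS and control in mean tailed share were small and changed sign easily. Pooling reads turned the difference to 0.517 points for any tail, 0.00691 for A and 0.684 for U (0.171, 0.0214 and 0.119 without LPS replicate 2). Arms with 10000 or more reads gave 0.0344 for U, and leaving out arms that end within 3 bases of the hairpin end, chosen after seeing the data, gave 0.0251 for A. Leaving out 1 sample gave -1.16 to 0.0449 points for any tail, -0.13 to 0.115 for A and -0.60 to -0.028 for U; the any-tail value turned without LPS replicate 2 (0.0449) and the A value without LPS replicate 2 (0.0877) or control replicate 1 (0.115). The cause was not tested. With no filter on reads, 2 arms were lower for any tail (miR-125a-5p and miR-324-5p) and 2 for A (miR-24-3p and miR-324-5p); every other alternative, leaving out each sample included, gave 0 arms in each direction. With 1 sample left out the log2 odds ratio ran from -0.342 to 0.0583 for miR-24-3p, from -0.0838 to 0.107 for miR-29a-3p and from -0.279 to 0.0575 for miR-146a-5p; it turned without LPS replicate 2 in each, without control replicate 1 for miR-29a-3p (0.0374) and miR-146a-5p (0.0405), and without singly read sequences for miR-29a-3p (0.00358). It kept its sign but moved from 0.62 to 2.39 for miR-194-5p, -2.39 to -0.42 for miR-324-5p, -2.17 to -1.01 for miR-3068-5p, -0.86 to -0.16 for miR-1198-5p, -0.57 to -0.22 for Mir140-5p, -0.33 to -0.17 for miR-125b-5p, 0.45 to 1.07 for miR-27a-5p, 0.37 to 0.94 for Mir16-1-3p, 0.21 to 0.47 for Mir30d-3p and 1.39 to 2.69 for Mir6236-5p. With 5 samples left the sign-flip tests cannot pass 0.05; the 3p minus 5p difference then ran from 17.0 to 17.5, A minus U from -4.73 to -4.51 and the share ending short from 11.2 to 11.95, which was 2.62 with reads pooled. Deviations of same-numbered samples from their group means correlated at r = 0.296, -0.13 and -0.30. With only 3 samples in each mean, these values cannot show whether the numbers pair samples. A replicate block cannot change the mean any-tail difference of -0.60 in this balanced layout. With the block 0 arms were called. Extending hairpins into the genome was not run, and leaving out T, TG and TGG tails gives no U value.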
